A study of Mus musculus with 16 samples.

Results

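The cytosolic ribosomal protein genes described here were the protein-coding rows of the expression table whose symbols begin with Rps, Rpl or Rplp, without the Rps6 kinases and the numbered pseudogenes, and whose mean over all libraries reached 0.5 TPM, a unit of transcript level that accounts for gene length and library size. This rule found 84 of the 57143 genes in the table: 33 with symbols of small-subunit proteins, 50 with symbols of large-subunit proteins, and Rps19bp1, whose symbol matches although its product is a binding partner of Rps19 and no ribosomal protein. A further 4 symbols matched but lay below the minimum, namely Rpl36al at 0.255 TPM, Rps23rg1 at 0.0994 TPM, Rpl27rt at 0.0534 TPM and Rpl10l with 0 counts. Just inside the minimum were Rpl39l at 0.612 TPM, Rpl24 at 0.808 TPM and Rps10 at 1.6 TPM. Ribosomal proteins such as Rpsa, Rack1 and Fau carry other symbols and are described apart.

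RNA came from the left ventricle of male C57BL/6 mice that had an operation on the abdomen under sevoflurane, a volatile anesthetic. Hearts were taken at 0h, 3h, 24h and 7d, with 4 libraries at each time, and all of them, the 0h libraries included, carry the label of surgery. The labels give neither an age nor a group without surgery, and it is not stated whether each library is a separate animal, so p-values measure the spread between these samples. Total counts ran from 8.31 M to 12.9 M (M, mega) per library.

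Each ribosome is built from ribosomal RNA and one copy of most ribosomal proteins, arranged in a small subunit that decodes the mRNA and a large subunit that joins amino acids. Mammalian ribosomal protein mRNAs are abundant, and most begin with a run of pyrimidines, the 5′ terminal oligopyrimidine (TOP) motif, through which mTORC1 and the protein Larp1 set how much of them is translated. The proteins are made in step with each other, and several have paralogues with a narrower pattern of tissues. The best known in heart is Rpl3l, a close relative of Rpl3 that is made mainly in heart and skeletal muscle.

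Ventricular tissue was evident in every library. The CPM (counts scaled to a common library size) of 7 ventricular cardiomyocyte markers summed to between 49046 and 69486, and those of 5 atrial markers to between 78.2 and 835. Nppa made up most of the lowest and the highest atrial sum, with 74.5 and 833 CPM. The atrial light chain gene Myl7 had 28.9 CPM in 3h replicate 3. It had 14.6, 24.8 and 37.5 CPM in 24h replicates 1, 2 and 4, and at most 1.77 CPM in every other library. All 84 genes were found in GENCODE M21 (GRCm38), spread over 19 chromosomes. Their levels per length ran from 0.612 to 5404 TPM. Rplp1, a stalk protein of the large subunit, was highest, followed by Rpl36 at 3285 TPM, Rps15 at 3208 TPM, the stalk protein Rplp0 at 2185 TPM and Rps3a1 at 2118 TPM. The lowest after Rpl39l, Rpl24 and Rps10 were Rpl13a at 15.4 TPM and Rps19bp1 at 25.2 TPM. The paralogues Rps4l, Rpl7l1 and Rpl22l1 averaged 50.8, 51.8 and 69.7 TPM. Rpl3l averaged 684 TPM and Rpl3 261 TPM, on listed lengths of 1643 and 3175 bases. The main transcripts of the pair are closer in length, at 1375 and 1351 bases, and per 1000 bases of these the mean CPM was 280 for Rpl3l and 209 for Rpl3.

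The low levels of Rpl24, Rps10 and Rpl13a rest on few reads, with 46, 207 and 1808 counts over all 16 libraries. In GENCODE M21 the exons of each overlap those of another gene on the same strand that spans more than 300 bases. These genes are Gm28037, RPS10-NUDT3 and Gm45713, and each of them had 0 counts in the table. How many exon bases are shared was not measured. An exon overlap with such a gene is not always found with a low level, though its extent may differ between genes. Exons of Rpl19 overlap those of Gm11629, which also spans more than 300 bases and had 10 counts. Rpl19 itself had 41172 counts and 718 TPM. How the counting treated reads in shared exons is not given in the sources used here, and its part in these levels was not tested. The table's gene lengths had a median of 1736 bases over the 84 genes, against 860 bases for the main transcript of the 83 genes that have one, so TPM understates genes whose listed length is far above that of their mRNA. Numbered pseudogenes of ribosomal proteins took few counts: 175 of 322 such rows had any, and together they held 0.422% of the number of counts of the 84 genes.

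A RefSeq promoter (GRCm38.p6) was at hand for 63 of the 84 genes. The pyrimidine letters CTTTC stood within 20 bases either side of the annotated start, on the sense strand, in 20 of the 63 (31.7%), against 6.44% of 27025 genes with a promoter. Over the window from 250 bases before to 50 bases after the start, searched on both strands, CCGGAAGT, a core that factors of the ETS family bind, stood in 11 (17.5%), against 4.31% of all genes. On the same terms GCCATNTT, a core of the factor YY1, stood in 13 (20.6%), against 6.96% of all genes, and TATAAA stood between 40 and 15 bases before the start in 1 (1.59%), against 2.41%. The 30 bases around the start, 15 before it and 15 from it on, are shown for 3 genes with CTTTC, in capitals, and for 3 without it, among them the paralogue Rpl3l on which the results below turn.
Rpl28 (chr7:4792950-4792979, plus strand): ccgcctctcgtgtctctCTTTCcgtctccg
Rpl38 (chr11:114668565-114668594, plus strand): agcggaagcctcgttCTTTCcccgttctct
Rplp2 (chr7:141447636-141447665, plus strand): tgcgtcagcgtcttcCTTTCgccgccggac
Rplp0 (chr5:115559452-115559481, plus strand): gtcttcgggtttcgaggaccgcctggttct
Rpl22l1 (chr3:28805493-28805522, plus strand): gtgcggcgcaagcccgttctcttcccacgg
Rpl3l (chr17:24727811-24727840, plus strand): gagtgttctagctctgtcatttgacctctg
The first 3 sequences have a pyrimidine run across the annotated start, Rpl22l1 has one just after it without these letters, and the Rplp0 and Rpl3l sequences have none as long there. The Rpl3l sequence is that of the first of 2 annotated starts, and the other also lacks CTTTC in its 30 bases. Rps6 and Rps9, not shown, lack CTTTC but have a pyrimidine run across the start, so these letters do not mark every such run. A match describes these letters and is not evidence that a factor binds. The 20 genes with CTTTC and the 43 with a promoter and no CTTTC had median log2 fold changes of 0.35 and 0.37 at 3h, 0.40 and 0.41 at 24h, and 0.19 and 0.21 at 7d, each against 0h.

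The 84 genes took a larger share of all counts at 3h than at 0h in these libraries. Their share was 3.05%, 3.38%, 2.70% and 3.24% in the 0h libraries, 4.67%, 3.48%, 3.41% and 3.59% at 3h, 4.22%, 3.89%, 2.73% and 4.29% at 24h, and 3.20%, 4.2%, 3.67% and 2.72% at 7d. Every 3h library lay above every 0h library, whereas the 24h and 7d libraries overlapped those of 0h. Mean shares were 3.09 ± 0.295% at 0h, 3.79 ± 0.593% at 3h, 3.78 ± 0.723% at 24h and 3.45 ± 0.634% at 7d (SD, n = 4 each). In tissue of mixed cells, fewer cells of a type and less RNA per cell cannot be told apart.

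**Figure D1:**
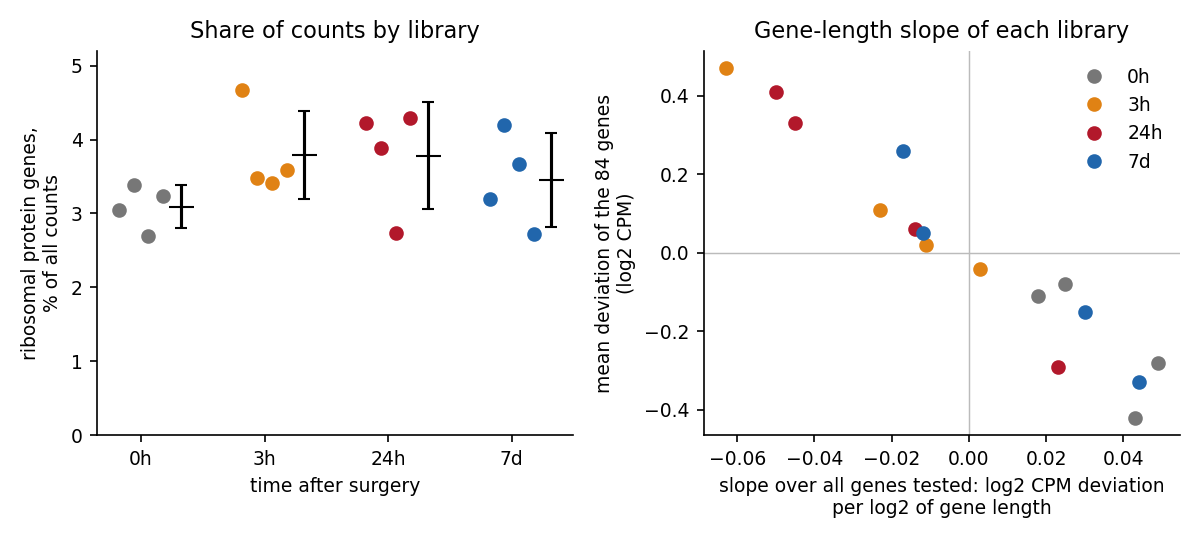
Left, share of all counts held by the 84 ribosomal protein genes in each library (points) with the mean and SD of each time (bars), in percent. Right, the mean deviation of the same genes from their own mean log2 CPM, plotted against the slope of log2 CPM on log2 gene length over all genes tested, 1 point per library. The 3h points on the left lie between 3.41% and 4.67%, above the 2.70% to 3.38% of 0h, and the libraries with the higher ribosomal protein RNA have the lower slopes.

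The genes moved up and down together from library to library. The SD of their mean log2 CPM between libraries of 1 time, pooled over times, was 0.25. Over the 16 libraries, which share depth and scaling within each library, the median Pearson r of a gene's log2 CPM with the mean of the other 83 was 0.94, and 66 of 84 reached 0.9. In 3h replicate 1, 79 of the 84 genes had their highest value of the 3h libraries, and in 24h replicate 3, 75 had their lowest of the 24h libraries. In 0h replicate 3, 67 had their lowest of the 0h libraries. The 84 genes are therefore far from 84 separate observations. The genes that followed the others least were Rpl7l1 (r = -0.164), Rpl39l (0.093), Rps4l (0.135) and Rps19bp1 (0.184), and Rpl3 (0.666) and Rpl3l (0.707) were also among the lower ones. Outside the rule, the genes most like the members' mean were Eef1b2, an elongation factor subunit (r = 0.983), Pfdn5, a chaperone subunit (0.969), Tomm7, of the mitochondrial import pore (0.969), and the ribosomal proteins Fau (0.966) and Rack1 (0.965).

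Library-wide differences by gene length moved with this shared component. In 8 libraries the ribosomal protein genes lay on average above their own mean and the slope of log2 CPM on gene length over all genes was below 0, and in the other 8 both signs were turned. 3h replicate 1 had the highest mean deviation, 0.47, with a slope of -0.063, and 0h replicate 3 the lowest, -0.42, with a slope of 0.043. The highest slope was that of 0h replicate 1, 0.049, with a mean deviation of -0.28. Over all genes tested, the median was 0.21 at 3h and 0.19 at 24h against 0h for those under 1000 bases, and -0.10 and -0.12 for those of 4000 bases or more (log2 fold changes). Ribosomal protein genes lay above the genes of their own listed length in every class. From the shortest to the longest class their medians were 0.40, 0.37, 0.34 and 0.38 at 3h. At 24h they were 0.41, 0.42, 0.37 and 0.39. The classes and the length trend use the table's lengths, with a median of 1736 bases over the 84 genes. Main transcripts of the 83 genes that have one had a median of 860 bases, and classes by those lengths were not tested. With the length trend of each library removed, the median over the 84 was 0.27 at 3h, 0.30 at 24h and 0.18 at 7d. With quantile normalization and limma it was 0.24 at 3h, 0.18 at 24h and 0.12 at 7d, with medians of all genes of 0.005, -0.003 and 0.015, so that the size of the difference depends on how the libraries are scaled.

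**Figure D2:**
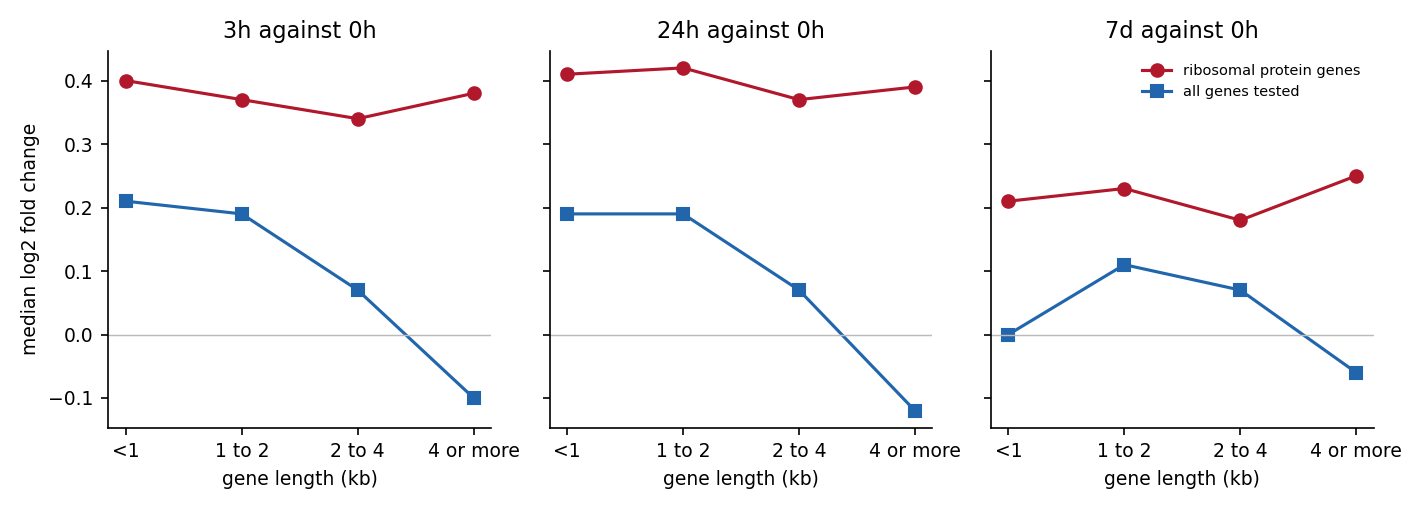
Median log2 fold change (edgeR) against 0h by class of the table's gene length in kilobases, for the ribosomal protein genes (red circles) and all genes tested (blue squares), at 3h, 24h and 7d. The listed lengths of the ribosomal protein genes are mostly above those of their main transcripts. The medians of the ribosomal protein genes stay between 0.34 and 0.42 at 3h and 24h, while those of all genes go from about 0.2 in the shorter classes to -0.10 and -0.12 in the longest.

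At 3h, all 84 genes had a positive log2 fold change against 0h, with a median of 0.37 and a range of 0.08 to 1.10, while the median over the 16866 genes tested was 0. Of the 84, 1 passed edgeR's quasi-likelihood test at an adjusted p under 0.05 as higher and 0 as lower. Of all genes, 2.01% and 3.3% did. An unadjusted p under 0.05 was found for 39 of the 84, and for 3824 of all 16866 genes tested. Every 3h library lay above every 0h library for 45 of the 84 (53.6%), against 10.4% of all genes tested, and the reverse held for 0 of the 84, against 10.9%. The gene that passed was Rpl3l, and others had larger log2 fold changes. Rpl39, Rpl32 and Rpl26 had 0.58, 0.49 and 0.47, with larger standard errors of 0.22, 0.21 and 0.16, and did not pass. Rpl3l had 468, 422, 397 and 448 CPM at 3h, against 306, 332, 286 and 373 CPM at 0h, with no overlap (log2 fold change 0.42 ± 0.12 SE, adjusted p = 0.046, edgeR). This call was kept without 0h replicate 4 and lost without any other library of the comparison, with adjusted p up to 0.141, and without 3h replicate 1 the median over the 84 genes was 0.24. It was also lost in 6 of 14 other settings: without TMM scaling (adjusted p = 0.0502), with quantile normalization and limma (0.054), with limma on log2(TPM + 1) or log2(TPM + 0.1) (0.0775 and 0.083), with the log2 CPM of the atrial light chain gene Myl7 added to the fit (0.113) and with the length trend removed (0.136). With the 3h and 0h libraries fitted alone, 52 of the 84 were higher, in a fit that called 3193 of all genes.

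Members of the stalk and of both subunits had values close to each other at 3h. Rplp0, the base of the stalk, had 1703, 1190, 1202 and 1326 CPM at 3h, against 996, 1091, 898 and 1094 CPM at 0h. Its log2 fold change of 0.41 ± 0.15 had an edgeR adjusted p of 0.0979. The stalk proteins Rplp1 and Rplp2 had log2 fold changes of 0.44 ± 0.17 and 0.37 ± 0.18, and Rps6, the small-subunit protein phosphorylated by the S6 kinases, one of 0.33 ± 0.18 (edgeR adjusted p = 0.137, 0.228 and 0.276). The largest log2 fold changes at 3h belonged to the scarce Rpl24 (1.10 ± 0.70), Rps10 (0.59 ± 0.39) and Rpl39l (0.59 ± 0.75), and the smallest to Rpl7l1 (0.08 ± 0.09), Rpl22 and Rpl4 (0.22 each), none of which passed the test. Small-subunit genes had a median of 0.39 and large-subunit genes one of 0.35.

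At 24h, 9 of the 84 genes had risen against 0h and 0 had fallen, where 9.53% of all genes tested were higher and 8.61% lower. A share of 9 in 84 is close to that background. The median log2 fold change over the 84 was 0.41, with a range of -0.56 to 0.92, while the median over all genes was -0.01. Of the 84, 81 lay above 0. An unadjusted p under 0.05 was found for 53 of the 84, and for 5557 of all 16866 genes tested. With quantile normalization and limma the median over the 84 was 0.18. Rpl3l had the smallest p of the 9. It had 545, 379, 405 and 531 CPM at 24h, against 306, 332, 286 and 373 CPM at 0h, so that no libraries overlapped (log2 fold change 0.52 ± 0.12, adjusted p = 0.00559, edgeR). The call of Rpl3l was kept with each of the 8 libraries left out, with adjusted p of at most 0.0289.

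Other genes that had risen at 24h included Rpl28, Rpl7, Rplp0, Rpl26 and Rpl21 of the large subunit and Rps26 and Rps20 of the small subunit, with log2 fold changes from 0.43 to 0.55. Rps26, which lies where the mRNA leaves the ribosome, had 324, 260, 213 and 317 CPM at 24h, against 185, 208, 189 and 209 CPM at 0h, with no overlap (0.49 ± 0.15, edgeR adjusted p = 0.025). Rplp0 had 1602, 1473, 1038 and 1553 CPM at 24h, against 996, 1091, 898 and 1094 CPM at 0h (0.47 ± 0.15, edgeR adjusted p = 0.0291). Rpl28 had 614, 556, 441 and 661 CPM at 24h, against 375, 458, 356 and 429 CPM at 0h (0.49 ± 0.15, edgeR adjusted p = 0.0249). In both Rplp0 and Rpl28 24h replicate 3 lay within the 0h range and the other 24h libraries above it.

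Which libraries were used decided the number called at 24h. Without 24h replicate 3, 63 of the 84 genes were higher and the median log2 fold change was 0.55. How many of all genes passed in that fit is not given here. Without 0h replicate 1, 0h replicate 3, 24h replicate 1 or 24h replicate 4, in each case 1 gene was higher, Rpl3l, and the calls of Rpl28, Rpl7, Rplp0, Rpl26, Rpl21, Rps26 and Rps20 were lost. Over all libraries, Rpl41, a very short basic protein, was just outside the threshold, with a log2 fold change of 0.61 ± 0.21 and an edgeR adjusted p of 0.0506. Rpl3 was at the other end of the list: it had 266, 272, 182 and 299 CPM at 24h, against 269, 263, 220 and 275 CPM at 0h (log2 fold change -0.01 ± 0.15, edgeR adjusted p = 0.975). Rps4l (0.01 ± 0.13) and Rpl7l1 (-0.06 ± 0.09) had fold changes similarly near 0, neither of which passed. Every 24h library lay above every 0h library for 4 of the 84 genes (Rpl3l, Rps26, Rpl21 and Rpl23), against 9.28% of all genes tested, and below for 1, Rpl7l1, against 9.61%.

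At 7d, 0 of the 84 genes passed edgeR's test against 0h in either direction (1 was higher by DESeq2). Of all genes, 0.219% were higher and 0.901% lower. An unadjusted p under 0.05 was found for 8 of the 84, a smaller share than the 2701 of all 16866 genes tested. The median log2 fold change of the 84 was 0.21, with 75 of 84 above 0, and without 7d replicate 2 it was 0.08. The largest values were those of Rpl24 (0.54 ± 0.72), Rpl37a (0.52 ± 0.23) and Rps4l (0.48 ± 0.13, edgeR adjusted p = 0.0599), and the smallest those of Rpl39l (-1.10 ± 0.91), Rpl13a (-0.13 ± 0.19) and Rps27rt (-0.09 ± 0.36). Between 24h and 3h, 0 of the 84 passed edgeR's test in either direction, where 4.09% of all genes were higher and 3.7% lower. The median there was 0.02, and 1 gene had an unadjusted p under 0.05, Rps4l at -0.40 ± 0.13 (1 gene was lower by DESeq2). Of all 16866 genes tested, 3763 had such a p.

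At 7d against 24h Rpl3l and Rps4l had calls of opposite sign, and most other members lay slightly lower without passing the test. Of the 84 genes, 77 had a negative log2 fold change at 7d against 24h, with a median of -0.20. This depended on the scaling: with quantile normalization and limma 31 of the 84 lay above 0 and the median was -0.08 (all genes 0.006), and with limma on log2(TPM + 1) 28 lay above 0 and the median was -0.06 (all genes 0.096). Rpl3l alone passed as lower and Rps4l alone as higher, where 4.6% of all genes were lower and 3.84% higher. Rpl3l had 299, 315, 331 and 328 CPM at 7d, against 545, 379, 405 and 531 CPM at 24h, with no overlap (-0.55 ± 0.12, adjusted p = 0.00628, edgeR). Its 7d libraries lay within the range of the 0h libraries. Rps4l had 23.9, 25.7, 25.1 and 33.9 CPM at 7d, against 20.3, 16.7, 20 and 21.5 CPM at 24h, with no overlap (0.47 ± 0.13, adjusted p = 0.0234, edgeR). The Rps4l call was lost without 24h replicate 2 or without 7d replicate 4 (adjusted p up to 0.115), and neither call was made when the 24h and 7d libraries were fitted alone (adjusted p = 0.0678 for Rpl3l and 0.123 for Rps4l). With Myl7 as a covariate Rpl3l had -0.61 (adjusted p = 0.287).

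**Figure D3:**
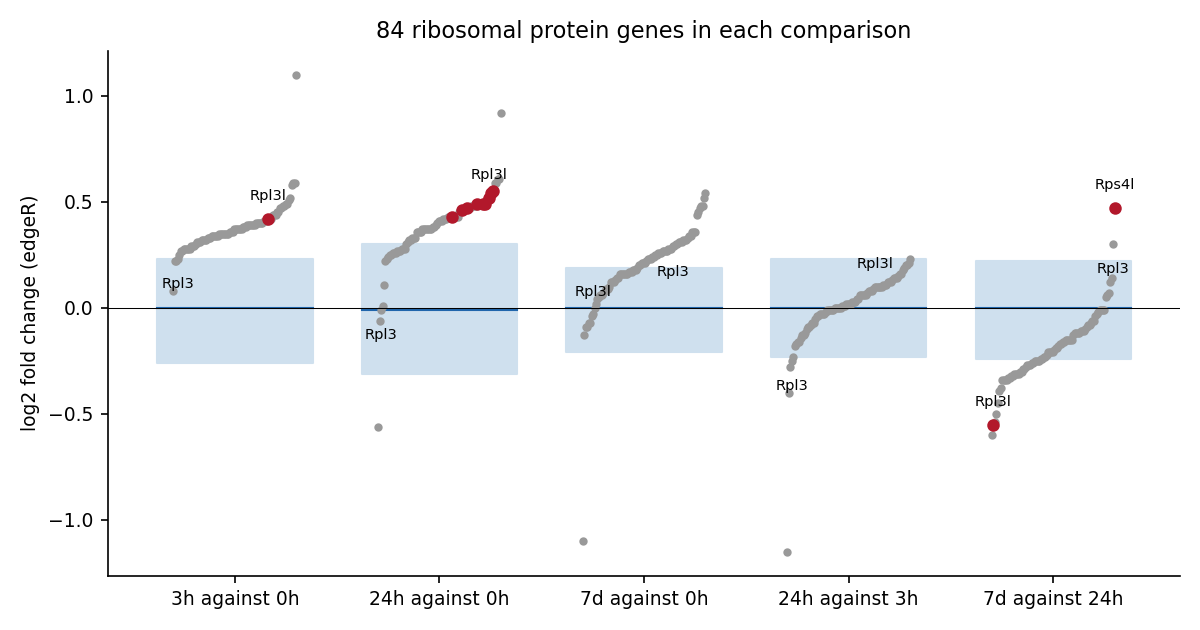
Log2 fold change (edgeR) of the 84 ribosomal protein genes in each comparison, sorted within it; red points passed the test at an adjusted p under 0.05, the blue bands run from the lower to the upper quartile of all genes tested and the line in each band is their median. All 84 points lie above 0 at 3h, 9 are red at 24h with Rpl3l among them, and at 7d against 24h Rpl3l is red below 0 and Rps4l red above it.

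Tested for any change over the 4 times, 2 of the 84 genes passed (2.38%), against 20.7% of all genes tested. They were Rpl3l (edgeR adjusted p = 0.00313) and Rps4l (0.00972). Without 24h replicate 3 the number was 36, and without 7d replicate 2 it was 9. The shares of all genes that passed in those fits are not given here. In GENCODE M21 Rps4l is a transcribed processed pseudogene on chromosome 6 (148354656 to 148355598, plus strand), while the table lists it as protein coding. It is a copy of Rps4x, a small-subunit gene on the X chromosome, so reads could be split between them. Rpl3l is on chromosome 17 (24727820 to 24736143, plus strand) and overlaps no other gene on that strand.

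Pairs of paralogues were compared within each library as the log2 ratio of counts per length, which does not depend on library scaling. Over 6 pairs and 5 comparisons, 30 exact two-sided permutation tests were made, whose smallest possible p with 4 against 4 libraries is 0.0286, and the smallest adjusted p was 0.143, so no ratio passed after correction. The ratio of Rpl3l to Rpl3 was 3.95, 2.69, 4.30 and 3.43 in the 24h libraries, against 2.20, 2.44, 2.51 and 2.62 at 0h, with no overlap. As log2 ratios these averaged 1.82 ± 0.29 at 24h and 1.29 ± 0.11 at 0h (SD, n = 4 each, exact permutation p = 0.0286, adjusted 0.143). At 7d the ratio was 2.03, 1.42, 2.21 and 2.48, below every 24h library (log2 ratio 0.99 ± 0.35 at 7d, exact permutation p = 0.0286, adjusted 0.143). These ratios use the listed lengths. With the lengths of the main transcripts, a choice made after seeing the data that divides every ratio by the same number, they were 2.01, 1.37, 2.19 and 1.74 at 24h, 1.03, 0.721, 1.13 and 1.26 at 7d, and 1.12, 1.24, 1.28 and 1.33 at 0h, so that which of the pair is higher depends on the lengths in 7d replicate 2.

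Ratios without overlap were also found in 3 other pairs. The log2 ratio of Rpl22l1 to Rpl22, the RNA-binding protein of the large subunit, was -2.05 ± 0.09 at 3h and -1.97 ± 0.03 at 7d, against -2.32 ± 0.10 at 0h, with no overlap in either comparison (SD, n = 4 each, exact permutation p = 0.0286 each, adjusted 0.143). The log2 ratio of Rpl7l1 to Rpl7 was -3.87 ± 0.29 at 24h and -3.37 ± 0.13 at 0h (exact permutation p = 0.0286, adjusted 0.143), and its parts show Rpl7 as higher at 24h and Rpl7l1 near its 0h level. Rps27l, a paralogue of Rps27 known in human cells as a p53 target, had 182, 119, 115 and 131 CPM at 3h, against 88.4, 99.4, 89.9 and 104 CPM at 0h. Its log2 fold change of 0.52 ± 0.17 had an edgeR adjusted p of 0.079, and its log2 ratio to Rps27 was -1.90 ± 0.18 at 24h and -1.42 ± 0.08 at 3h (exact permutation p = 0.0286, adjusted 0.143). The ratio of Rps4l to Rps4x overlapped between the times in all 5 comparisons. Rpl39l had 28 counts in all, too few for a ratio to Rpl39 to be read.

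**Figure D4:**
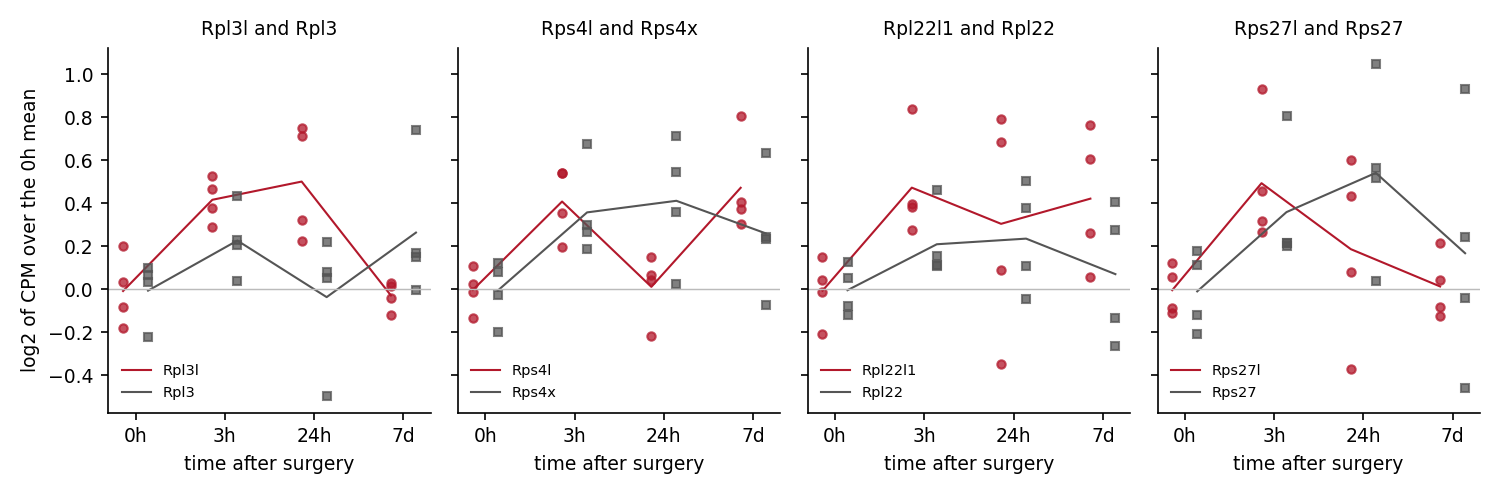
Log2 of CPM over the gene's own 0h mean in each library (points) and the mean of each time (lines), for 4 paralogues (red circles) and their partners (grey squares). The 3h and 24h points of Rpl3l lie above its 0h points and its 7d points return among them, while Rpl3 overlaps its 0h range at every time.

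The ribosomal proteins with other symbols had values like those of the 84 genes. Fau, Rpsa and Rack1 had log2 fold changes of 0.43, 0.39 and 0.34 at 3h and of 0.41, 0.26 and 0.33 at 24h, each against 0h, and did not pass edgeR's test in any comparison (adjusted p from 0.119 to 0.158 at 3h and from 0.095 to 0.235 at 24h).

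Other genes of translation, in lists chosen for their function, had most of their calls at 24h, as all genes tested did. Against 0h, 3061 of all genes passed at 24h, 895 at 3h and 189 at 7d. At 24h 9.53% of all genes were higher and 8.61% lower than at 0h. Of 35 initiation factors, 20 were higher and 1 lower, with a median log2 fold change of 0.37. By edgeR 0 of them passed at 3h or at 7d, with 7 and 11 at an unadjusted p under 0.05. Of all 16866 genes tested, 3824 and 2701 had such a p. Eif1, which guards the choice of the start codon, had 1343, 968, 893 and 1334 CPM at 24h, against 629, 621, 565 and 629 CPM at 0h (0.89 ± 0.16, edgeR adjusted p = 0.000725). The helicase Eif4a2 rose by 0.65 ± 0.12 and the Eif3 subunit Eif3g by 0.75 ± 0.13 (edgeR adjusted p = 0.00103 and 0.000937). Eif4e, the protein that binds the cap of the mRNA, fell to 134, 159, 171 and 162 CPM at 24h, against 198, 207, 203 and 212 CPM at 0h (-0.39 ± 0.11, edgeR adjusted p = 0.015). Of the 35 initiation factors, 17 changed over time (48.6%), against 20.7% of all genes tested and 2 of the 84 ribosomal protein genes. The number of ribosomal protein genes was 36 without 24h replicate 3, and their median at 24h, 0.41, was close to the 0.37 of the initiation factors. The medians were thus alike at 24h against 0h, where 20 of the 35 and 9 of the 84 were higher. They were not alike in every comparison. For initiation factors and ribosomal protein genes they were 0.17 and 0.37 at 3h against 0h, and 0.21 and 0.02 at 24h against 3h. The reason for the difference in calls was not tested.

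Among 15 elongation factors and other genes with TOP mRNAs, 5 were higher and 1 lower at 24h, with a median of 0.28. Npm1, a nucleolar chaperone, rose by 0.65 ± 0.13 and Btf3, of the complex that meets new chains at the ribosome, by 0.63 ± 0.15 (edgeR adjusted p = 0.00178 and 0.00592). Among 12 hosts of small nucleolar RNAs, whose introns carry guides for ribosomal RNA modification, 4 were higher and 0 lower at 24h, with a median of 0.51. These were Gas5 (0.72 ± 0.17), Snhg6 (0.87 ± 0.23), Snhg12 (0.93 ± 0.25) and Snhg5 (0.90 ± 0.28), and Snhg5 had also risen at 3h (0.95 ± 0.28, edgeR adjusted p = 0.0484).

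Of 46 genes of ribosome biogenesis, 6 were higher and 1 lower at 24h, with a median of 0.17, and by edgeR 0 passed at 3h or at 7d, with 9 at an unadjusted p under 0.05 each time. Nop10 and Nhp2, of the complex that makes pseudouridine in ribosomal RNA, rose by 0.49 ± 0.13 and 0.55 ± 0.15, and Utp20, of the small-subunit processome, fell by 0.65 on the log2 scale. Ubtf, a factor of ribosomal DNA transcription, had 113, 103, 110 and 91.3 CPM at 24h, against 72.6, 81.0, 69.6 and 78.8 CPM at 3h, a rise of 0.47 ± 0.10 (edgeR adjusted p = 0.00392), and did not pass against 0h. Of 20 genes of mTORC1 and the control of TOP mRNAs, 3 were higher and 1 lower at 24h, with a median of 0.03. Eif4ebp1, which holds back Eif4e, rose by 0.78 ± 0.15, Akt1s1, an inhibitory part of mTORC1, by 0.47 ± 0.09, and Sesn3, an inhibitor of mTORC1, fell by 0.69 (edgeR adjusted p = 0.00195, 0.00158 and 0.00401). Larp1 itself had -0.13 ± 0.10 at 24h (edgeR adjusted p = 0.374).

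**Figure D5:**
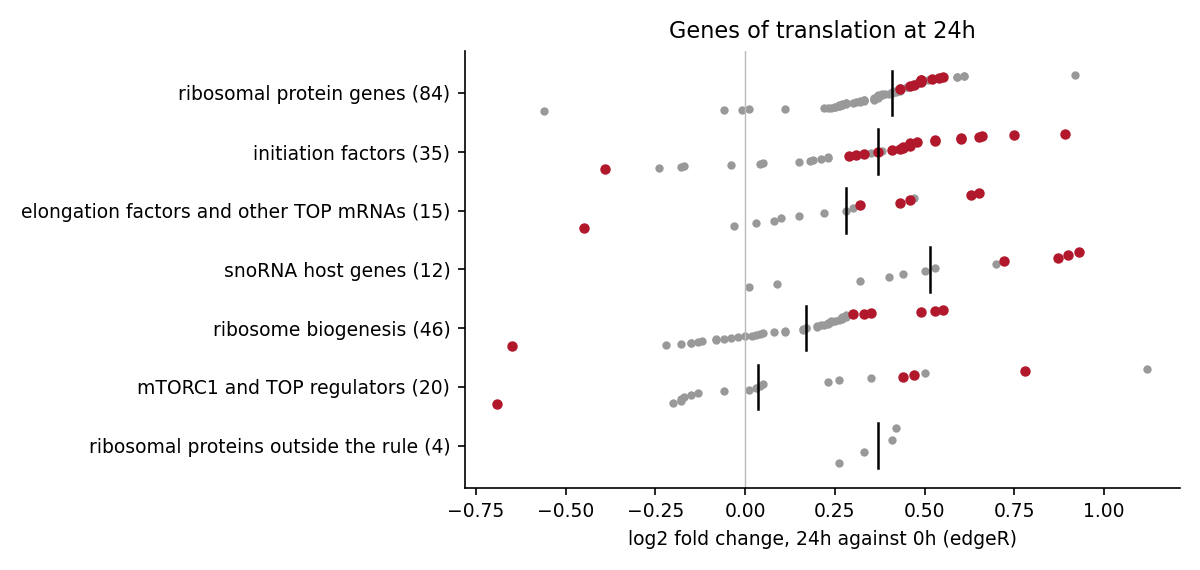
Log2 fold change at 24h against 0h (edgeR) of the ribosomal protein genes and of 6 lists of other translation genes, with the number of genes in each; red points passed the test at an adjusted p under 0.05 and black bars are medians. The medians are 0.41 for ribosomal protein genes, 0.37 for initiation factors and 0.51 for hosts of small nucleolar RNAs, and 20 initiation factors are red on the right against 9 of the larger ribosomal protein set.

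Markers of other cells moved at the same times. The summed CPM of 7 neutrophil markers was 34.3 to 135 at 3h and 20.9 to 81.4 at 24h, against 3.01 to 4.29 at 0h, and 6 of the 6 tested were higher at 3h and 5 at 24h. The summed CPM of 5 hepatocyte markers was 1.32 to 43.7 at 3h, against 0 to 0.322 at 0h, where 2 of the 5 had 0 counts, and 3 of 5 were higher at 3h. At 24h, 3 of 4 atrial markers tested were higher. The atrial light chain Myl7 had 14.6, 24.8, 1.37 and 37.5 CPM at 24h, against 0, 0.205, 1.74 and 0 CPM at 0h. With the log2 CPM of Myl7 as a covariate the median over the 84 ribosomal protein genes at 24h was again 0.41, and 0 of them passed, Rpl3l included (0.58, adjusted p = 0.155), where 89 of all genes did. At 7d against 24h the same 3 of 4 atrial markers were lower, and Myl7 had 0.0946, 0.16, 0.17 and 0.156 CPM at 7d. The summed CPM of 4 mesothelial markers was 3.36 to 7.84 at 24h and 3.77 to 7 at 7d, against 7.47 to 13.2 at 0h, and 2 of the 3 tested were lower at 24h and 1 at 7d. Nuclear-retained RNAs, a list of 4, summed to 2741 to 3842 CPM at 24h and 1913 to 3086 CPM at 7d, against 3368 to 4087 CPM at 0h, and Malat1 and Kcnq1ot1 were lower at both times. In the other lists of cell markers at most 1 gene passed in each direction in any comparison. The contractile gene Actc1, 1 of 7 ventricular cardiomyocyte markers, was lower at 24h (-1.01), Kdr, 1 of 5 endothelial markers, was lower at 3h (-1.25) and 24h (-0.93), and 0 of 5 erythroid markers passed at any time. Myl7 itself differed between the times, and with it the number of all genes called at 24h went from 3061 to 89. That fit therefore cannot tell atrial RNA from time. The part of the RNA of these lists in the results was not tested.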

How the data were processed

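RNA of 16 left-ventricle libraries was measured as polyA RNA with a directional kit, per the labels. The authors deposited 1 table of counts, TPM and FPKM per gene. The deposited counts are raw, as whole numbers. The deposited TPM were used for levels, the rule's minimum of 0.5 and an alternative, and the deposited FPKM were not used. Cutadapt, STAR and the build mm10 were used, per the submitters' processing notes; for versions, counting tool and strand of counting the sources used here give nothing. Genes that overlap another gene on either strand are therefore uncertain, and so are close copies of a gene.

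Genes were kept if their mean TPM reached 0.5, which left 16866, and their counts were scaled by TMM and tested in 1 fit of all 16 libraries with edgeR 4.0.16's quasi-likelihood test (R 4.3.3, robust, no replicate block), checked on simulated data. P-values were adjusted by Benjamini-Hochberg over all genes of a comparison, with a threshold of 0.05, and CPM are TMM-scaled. The comparisons to 0h share their 0h libraries. Standard errors are log2 fold changes over the root of the F statistic. Coordinates come from GENCODE M21 and promoters from RefSeq. Paralogue ratios had 0.5 added to each count. Alternatives used DESeq2 1.42.0 and limma 3.58.1 on log2 of TPM plus 1 or plus 0.1, other scalings and filters, a trend on gene length, a covariate and libraries left out.

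The members, the lists and the tests were chosen with earlier results of these data known. Members named are those that passed, the 3 largest and 3 smallest fold changes in each comparison to 0h, the 5 highest and 5 lowest levels, the paralogue pairs, the stalk and Rps6, and, for each list, up to 4 of smallest p over time. Larp1, Rpl41 and the genes of unlike pattern were named after their values were seen. A few members covered by this rule are not reported here.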

Additional observations from a re-analysis of the deposited data

Results flagged for a closer look

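Values far from the other libraries of their time were found in 7 of 88 checks of named members and of the share of counts, and chance gives such a value in about 1 group in 20. In 3h replicate 1 the share of counts was 4.67%, against 3.41% to 3.59% in the other 3h libraries. The same library had 378 CPM of Rpl22 (others 296 to 306), 628 CPM of Rpl26 (442 to 473), 996 CPM of Rpl41 (575 to 642) and 58 CPM of Rps27rt (31.2 to 34.7). In 24h replicate 4 Rps27rt had 76.7 CPM, against 33.5 to 38.4 in the other 24h libraries. In 0h replicate 3 Rps20 had 232 CPM, against 267 to 272 in the other 0h libraries.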

How the results depend on the processing

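At 24h 9 members were higher. The number was 26 with DESeq2, 2 without TMM scaling and 1 with quantile normalization and limma. It was 1 with limma on log2(TPM + 1), 1 on log2(TPM + 0.1), and 0 with Myl7 as a covariate. Over all genes in either direction 3061 were called at 24h, and 3542 with DESeq2. The median there was 0.16 with limma at either pseudocount, where the median of all genes was itself -0.192 and -0.233 (-0.15 and -0.178 at 3h, 0.096 and 0.12 at 7d against 24h, and -0.119 without TMM scaling at 24h). At 3h 1 member was higher. The number was 52 with the 2 times fitted alone and 7 with DESeq2. Those fits called 3193 and 1415 of all genes in either direction, against 895. The number was 0 without TMM scaling, with limma on TPM at either pseudocount, with Myl7 or with the length trend removed. At 7d against 0h DESeq2 called 1 higher. At 24h against 3h 1 was lower without TMM scaling, with DESeq2, with limma on TPM at either pseudocount and with a minimum of 2 TPM. At 7d against 24h 0 were higher and 0 lower with those times alone or with Myl7. For any change the 2 became 9 with DESeq2, 5 without a filter and 1 with Myl7. The cause was not tested.

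The share of higher genes among all called at 24h, 52.5%, was 30.6% without TMM scaling, 65.6% with the length trend removed and 18.1% and 18% with limma on TPM; at 3h 37.9% was 24.4%, 52.5%, 16.6% and 17.6%. Leaving out 1 library at a time gave 0 to 1 higher at 3h (median 0.24 to 0.43), 1 to 63 at 24h (0.29 to 0.55), a median of 0.08 to 0.31 at 7d, 0 to 1 lower at 24h against 3h (-0.09 to 0.16), and at 7d against 24h 0 to 1 higher and 1 to 6 lower (-0.32 to -0.09), the 6 without 24h replicate 3. For any change the number was 2 to 36. How many of all genes were called with a library left out is not given here.

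Among named members without a call, the sign turned for Rpl7l1 at 3h (-0.10 and -0.11 with limma on TPM), for Rpl3 at 24h (0 with median-of-ratios scaling and with DESeq2, and -0.10 to 0.12 with a library left out), for Rpl39l at 24h (-0.89 to 0.01), and at 7d for Rpl13a (-0.24 to 0.01), Rpl24 (-0.26 to 0.92) and Rps27rt (-0.42 to 0.09), each with a library left out. Libraries with the same replicate number did not deviate together over all genes (correlations from -0.12 to 0.06, 2 of 16 closest to their own number). This check cannot show whether the numbers mark a pairing. With a replicate block, 1 member was higher at 3h and 8 at 24h, and the medians were 0.36 and 0.40. Counts near 0 limit Rpl39l, Rpl24 and Rps10.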
